A study of Mus musculus with 6 samples.

Results

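The splicing regulators Rbfox1, Rbfox2, Mbnl1, Mbnl2, Mbnl3, Celf1, Celf2, Rbm20, Rbm24 and Rbm38 were examined in cultured muscle stem cells (MuSCs). They were chosen by gene symbol, and all 10 had a row among the 18943 genes of the deposited table. The table holds 6 libraries, 2 each of MuSCs kept for 5 days with the solvent DMSO, with endothelin-3 (ET-3) or with neurotensin (NT). Both peptides act through G protein-coupled receptors, and the study tested whether they hold MuSCs quiescent. All cells were wild type, from C57BL/6 mice 8 weeks old, and had been purified by FACS before culture. Per the labels each ligand was used at 100 nM, whereas the paper's methods give higher and unequal concentrations. The design text speaks of triplicates, and 2 libraries a group were analysed here. Whether the libraries of a group came from separate animals or cultures is not stated, so the p-values measure the spread between these libraries, which may be technical.

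Alternative splicing decides which exons of a gene reach the mature mRNA, and muscle uses it more than most tissues. RBFOX, MBNL and CELF proteins bind short motifs in pre-mRNA and promote or skip the exon nearby, and MBNL and CELF proteins often act in opposite directions on the same exon. Loss of MBNL function and excess of CELF1 underlie the splicing defects of myotonic dystrophy. RBM20 controls the splicing of titin, and RBM24 and RBM38 are closely related proteins that act on both splicing and mRNA stability during muscle differentiation. The values below are sums over all exons of a gene, so they give the amount of regulator mRNA and not the use of any exon.

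Each deposited value is a rounded product of a read count and a factor of its library, and the factors fitted here lay between 0.781 and 1.19. They summed to between 4214458 and 4600575 per library, or an estimated 3628952 to 5396233 reads on genes. All 10 regulators exceeded the minimum mean value of 5 that 13921 genes passed. Counting error alone was between 1.95% and 7.77% of a value for 8 of the regulators in every library, with Rbfox1 reaching 25.7% and Mbnl3 15.8%, and these errors cover counting error only. The ET-3 pair and the NT pair differed by no more than counting noise (mean chi-square per gene 0.867 and 0.954, where 1 is repeated sampling of the same RNA), whereas the DMSO pair gave 1.49. Calls were therefore also made on the average of each treated pair, taken as a single sample.

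The cells carried the markers of their label. A list of 7 MuSC and myoblast markers, with Pax7, Myf5 and Myod1, summed to between 6688 and 8185 in every library, but its members moved in both directions. Pax7 went from 857 and 1070 in the DMSO libraries to between 1599 and 1754 in the treated ones, and Cdh15 from 1547 and 1746 to between 436 and 496. A list of 7 differentiation markers, with Myog and Myh3, summed to 28297 and 31320 in DMSO and to between 1675 and 2147 with either ligand. Endothelial markers (3 of 5 listed) summed to 11 and 22 in DMSO and between 36 and 43 in the treated libraries, and macrophage markers (2 of 5 listed) to between 21 and 45. Fibroadipogenic markers (4 of 5 listed) summed to 204 and 211 in DMSO and to between 70 and 97 with either ligand. Among them Col1a1 stood at 148 and 146 in DMSO and 2 to 8 in the treated libraries. Ly6a went up from 27 and 18 to between 37 and 52. The smooth muscle and pericyte sum went from between 2129 and 2537 to between 744 and 912. Of its members Notch3, which MuSCs also express, went from 1397 and 1773 to between 284 and 409, and the pericyte marker Rgs5 from 117 and 150 to between 2 and 5, with Myh11 at 0 to 4. Schwann markers (4 of 5 listed) went from between 3463 and 3666 to between 2331 and 2404. Among them Ncam1 went from 3326 and 3513 to between 1649 and 1785. Ngfr went the other way, from 93 and 115 to between 591 and 644. Neuronal markers (2 of 5 listed) summed to between 774 and 867, mostly Tubb3. The part of other cell types, and of the differentiation state of the cells, in the results below was not tested.

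Start-site sequence was at hand for 8 of the 10 regulators, in 14 windows of 250 bases before a RefSeq transcript start on GRCm38.p6. Those of Rbfox1 and Mbnl3 are printed because these genes moved farthest down and farthest up. Each is given 5′ to 3′ on the gene's own strand, and capitals mark CAGCTG, an E-box form that myogenic bHLH factors are known to bind, searched on both strands.
Rbfox1, upstream start, chr16:5884543-5884792, plus strand: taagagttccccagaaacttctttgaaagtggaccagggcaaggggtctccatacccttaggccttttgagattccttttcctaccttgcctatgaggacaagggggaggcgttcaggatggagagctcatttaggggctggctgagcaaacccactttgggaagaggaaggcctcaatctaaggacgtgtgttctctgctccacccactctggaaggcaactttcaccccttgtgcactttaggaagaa
Rbfox1, internal start, chr16:7069585-7069834, plus strand: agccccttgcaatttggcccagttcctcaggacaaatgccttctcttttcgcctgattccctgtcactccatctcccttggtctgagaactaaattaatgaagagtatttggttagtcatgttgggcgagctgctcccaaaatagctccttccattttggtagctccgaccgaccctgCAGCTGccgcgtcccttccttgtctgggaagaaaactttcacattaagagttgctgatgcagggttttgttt
Mbnl3, chrX:51205991-51206240, minus strand: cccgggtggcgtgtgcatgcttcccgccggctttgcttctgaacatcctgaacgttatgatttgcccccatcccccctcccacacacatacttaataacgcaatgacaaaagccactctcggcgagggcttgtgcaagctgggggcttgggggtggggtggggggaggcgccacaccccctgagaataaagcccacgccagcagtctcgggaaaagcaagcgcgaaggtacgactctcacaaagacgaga
CAGCTG stood in the internal window of Rbfox1 and in no other of the 14 windows, against 13.0% of all 32851 promoter windows of this length. Neither the MEF2 motif (2.92% of all windows) nor the CArG box bound by SRF (1.47%) was found in any of the 14. CpG dinucleotides numbered 2 and 6 in the Rbfox1 windows and 15 in the Mbnl3 window, with a median of 6 over all windows. The upstream Rbfox1 window ends at 5884792, before the annotated gene start at 5885355. Bases shortly after its end were in no GENCODE M21 transcript of Rbfox1. Each gene has a single summed value, which does not show which start was used.

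Relative to DMSO, 3 of the 10 regulators, Rbfox1, Rbm20 and Rbfox2, fell by at least 2-fold and 1, Mbnl3, rose by at least 2-fold, under ET-3 and likewise under NT. Genes counted as changed by 2-fold when limma also gave them a p, adjusted by Benjamini-Hochberg, no higher than 0.05. Over all tested genes this held for 21.5% under ET-3 (14.9% lower and 6.62% higher) and 20.5% under NT (13.2% lower and 7.30% higher). By the adjusted p alone 8 regulators were lower, 1 was higher and Mbnl1 did not pass, under either ligand. The background of that criterion was wide, with 63.7% of all genes under ET-3 (33.2% lower and 30.6% higher) and 62.2% under NT (32.5% and 29.7%). After scaling to library totals, 3697 genes were lower and 5183 higher under NT by this criterion, in place of 4528 and 4131. Over the 10 regulators the log2 fold changes had a median of -0.77 under ET-3 and -0.83 under NT, beside -0.01 and -0.01 over all tested genes. In 9 of the 10 the 4 treated libraries did not overlap the DMSO pair, as in 69.6% of all tested genes, and 8 of these regulators lay below it, as did 36.4% of all tested genes. Both comparisons use the same 2 DMSO libraries and are not independent of each other. In bulk RNA, fewer cells of a kind and less RNA per cell cannot be told apart.

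**Figure D1:**
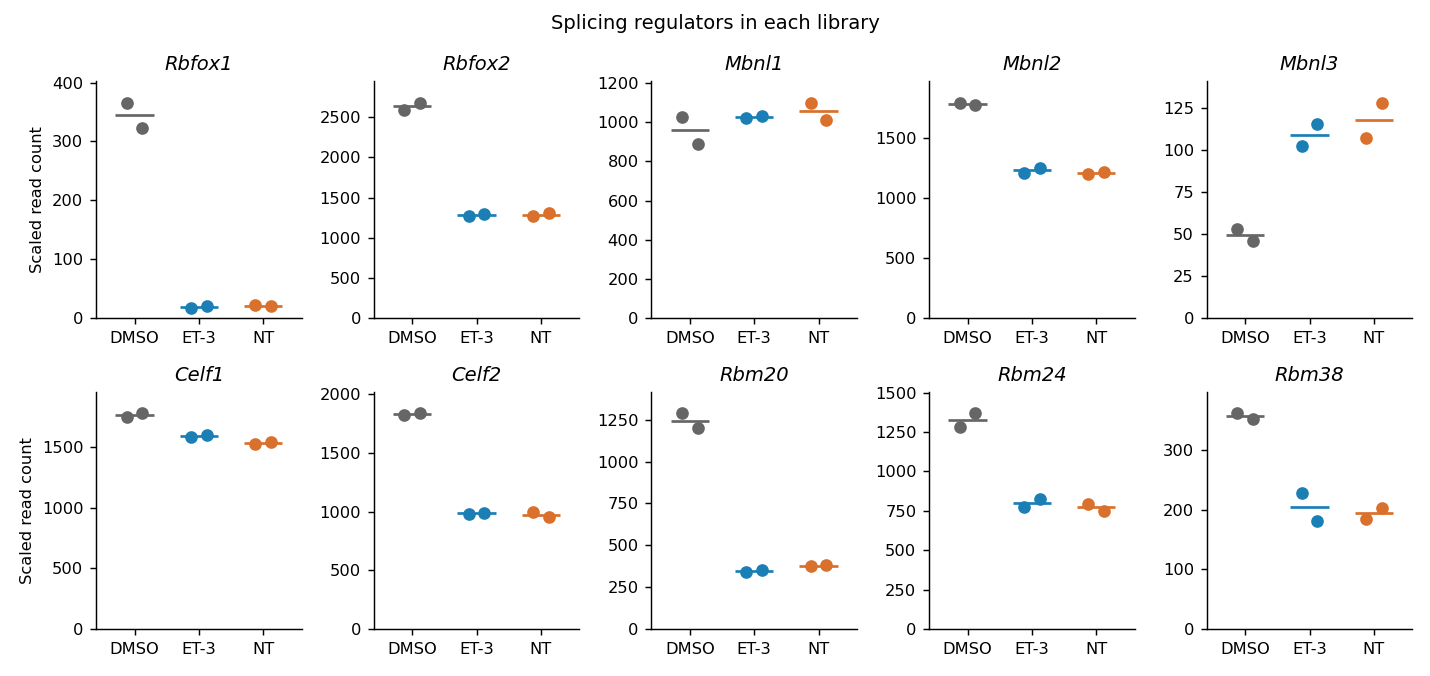
Scaled read count (linear axis from 0) of each of the 10 splicing regulators in the 2 DMSO, 2 ET-3 and 2 NT libraries; points are libraries and bars are group means. Rbfox1 drops from 366 and 323 to between 18 and 22, Mbnl3 goes up from 53 and 46 to between 102 and 128, and Mbnl1 overlaps between the groups.

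Rbfox1 and Rbfox2 encode the RBFOX proteins whose mRNA was measured here. Rbfox1 is the form restricted to muscle, heart and neurons and Rbfox2 the widely expressed one. Rbfox1 (ENSMUSG00000008658, GRCm38 chromosome 16, 5885355 to 7411526, plus strand) stood at 366 and 323 in the DMSO libraries, 18 and 20 after ET-3 and 22 and 21 after NT. All treated libraries were low, and the groups were far apart. On the log2 scale Rbfox1 differed from DMSO by -4.11 under ET-3 (standard error 0.17, adjusted p = 3.28e-08, limma) and -3.94 under NT (adjusted p = 4.80e-08, limma), or 17.3-fold and 15.3-fold lower. Rbfox2 (ENSMUSG00000033565, chromosome 15, 77078990 to 77307004, minus strand) stood at 2585 and 2681 in the DMSO libraries, 1276 and 1296 after ET-3 and 1268 and 1304 after NT. The treated libraries stood close together, all below both DMSO libraries. Its log2 fold change was -1.03 under both ligands (standard error 0.04, adjusted p = 2.43e-08 under ET-3 and 2.59e-08 under NT, limma). This lay near the 2-fold threshold. After scaling to library totals the values were -0.94 and -0.92, and Rbfox2 no longer counted as changed by 2-fold, while its adjusted p stayed under 0.05.

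Per exonic length, the summed RBFOX level went from 87.5 and 87.7 RPKM in DMSO to between 37.2 and 39.1 with either ligand. RPKM was computed here from the deposited values, the library totals and the union of annotated exons. Rbfox1 made up 20.8% and 18.2% of this sum in the DMSO libraries and between 2.54% and 3.11% in the treated ones. Rbfox2 made up the rest, between 96.9% and 97.5% in the treated libraries.

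Mbnl1 and Mbnl2 encode muscleblind proteins that drive the shift from fetal to adult exons in muscle, and Mbnl3 a relative known from proliferating myoblasts and regenerating muscle. Mbnl3 (ENSMUSG00000036109, chromosome X, 51117269 to 51206532, minus strand) stood at 53 and 46 in the DMSO libraries, 102 and 115 after ET-3 and 107 and 128 after NT. Every treated library was above both DMSO libraries. The difference from DMSO on the log2 scale was 1.12 with ET-3 (standard error 0.15, 95% interval 0.78 to 1.46, adjusted p = 0.000107, limma) and 1.23 with NT (0.89 to 1.57, adjusted p = 5.73e-05, limma). With averaged treated pairs, where each ligand is left with 1 sample, the log2 fold changes of Mbnl3 were 1.12 and 1.23. In that fit the adjusted p was far higher than in the main fit for each of Rbfox1, Rbfox2, Rbm20 and Mbnl3. Among them Mbnl3 stood closest to the threshold of 0.05, just under it with either ligand.

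Mbnl2 (ENSMUSG00000022139, chromosome 14, 120275669 to 120431697, plus strand) went the other way, from 1791 and 1769 in the DMSO libraries to 1208 and 1246 after ET-3 and 1195 and 1214 after NT. Its groups did not overlap, and the fall was 1.45-fold under ET-3 and 1.48-fold under NT. The log2 fold changes were -0.54 and -0.56 (standard error 0.04, adjusted p = 1.87e-06 and 1.45e-06, limma). Mbnl1 (ENSMUSG00000027763, chromosome 3, 60472830 to 60629750, plus strand) stood at 1028 and 890 in the DMSO libraries, 1019 and 1033 after ET-3 and 1100 and 1011 after NT. The first DMSO library lay within the treated range and the second below it. The fitted log2 fold change was 0.10 for ET-3 (95% interval -0.05 to 0.25, adjusted p = 0.220, limma) and 0.14 for NT (-0.01 to 0.29, adjusted p = 0.0980, limma). These values depended on the DMSO library used: without DMSO replicate 1 they were 0.20 and 0.24 and passed the adjusted p, and without DMSO replicate 2 they were -0.0028 and 0.037. After scaling to library totals they were 0.19 and 0.25 and passed (adjusted p = 0.0265 and 0.00634, limma).

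Within the MBNL family the summed level per exonic length went from 46.0 and 43.5 RPKM in DMSO to between 38.6 and 40.3 with either ligand. Mbnl2 was the most abundant member in each library. Its part was 71.0% and 73.6% in DMSO and between 58.4% and 60.4% with either ligand. Mbnl3 made up 2.88% and 2.63% in DMSO and between 6.99% and 8.62% with either ligand, so it remained the minor member. With 2 libraries a group these parts are descriptions without a test.

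**Figure D2:**
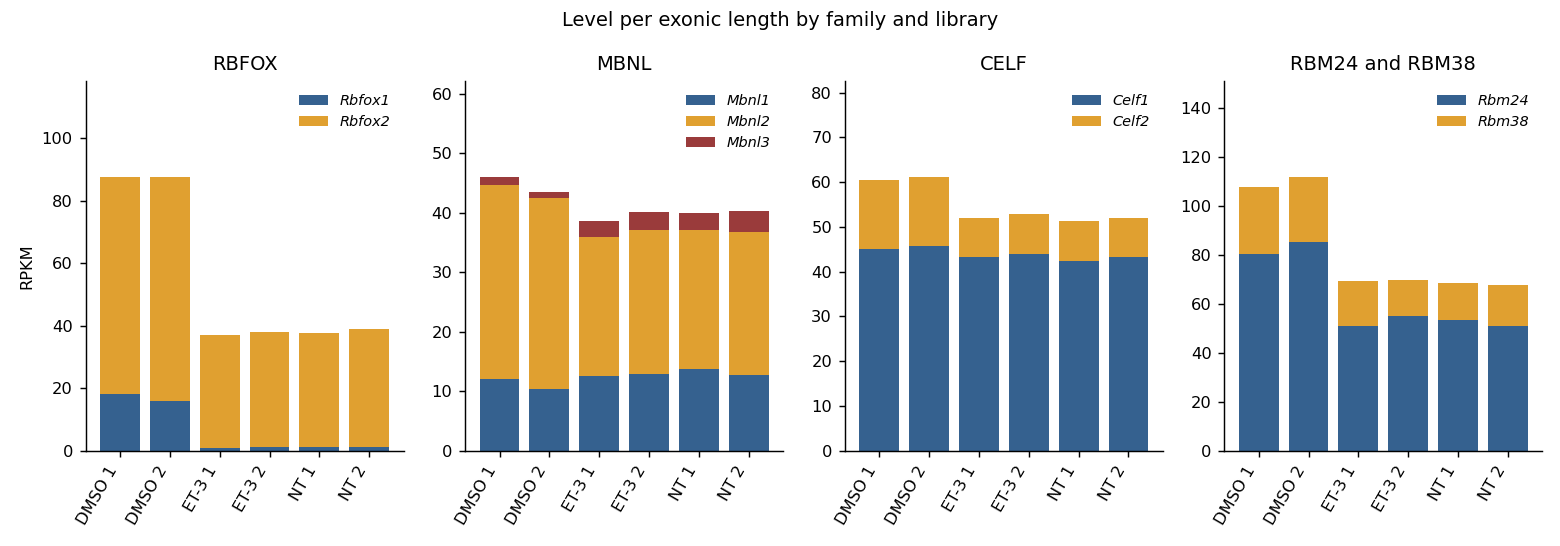
RPKM per library (bars from 0, 1 bar a library) of the RBFOX, MBNL and CELF members and of Rbm24 and Rbm38, stacked by gene. The RBFOX bars shrink from 87.5 and 87.7 to between 37.2 and 39.1, with Rbfox1 nearly gone, while Celf1 and Mbnl1 keep similar heights.

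Celf1 and Celf2 encode CELF proteins, which favour fetal splice forms and, in the case of CELF1, also the decay of GU-rich mRNAs. Celf2 (ENSMUSG00000002107, chromosome 2, 6539694 to 7509563, minus strand) stood at 1821 and 1838 in the DMSO libraries, 981 and 991 after ET-3 and 1000 and 950 after NT. The treated libraries formed a narrow band well below DMSO. The log2 difference of Celf2 from DMSO was -0.89 with ET-3 and -0.91 with NT (standard error 0.04, adjusted p = 8.07e-08 and 7.81e-08, limma), short of 2-fold. Celf1 (ENSMUSG00000005506, chromosome 2, 90940382 to 91019497, plus strand) stood at 1743 and 1777 in the DMSO libraries, 1582 and 1594 after ET-3 and 1524 and 1543 after NT. The groups did not overlap, but the distance was small. The log2 fold change of Celf1 was -0.15 and -0.20 (standard error 0.04, adjusted p = 0.00794 and 0.00151, limma). It was -0.06 and -0.09 after scaling to library totals, where it did not pass (adjusted p = 0.185 and 0.0657, limma), nor with averaged treated pairs (adjusted p = 0.104 and 0.0754, limma). Celf1 accounted for 74.6% and 74.8% of the CELF level per exonic length in DMSO and for between 82.4% and 83.3% with either ligand.

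Rbm20 encodes a splicing repressor that removes spring-region exons from titin and is known mainly from heart, where its mutation causes dilated cardiomyopathy. Rbm20 (ENSMUSG00000043639, chromosome 19, 53677306 to 53867080, plus strand) stood at 1288 and 1201 in the DMSO libraries, 340 and 350 after ET-3 and 374 and 380 after NT. Both NT libraries were above both ET-3 libraries, and all 4 were far below DMSO. It fell 3.60-fold under ET-3 and 3.29-fold under NT, with log2 fold changes of -1.85 and -1.72 (standard error 0.05, adjusted p = 3.03e-09 and 5.01e-09, limma). Per exonic length, Rbm20 went from 40.0 RPKM in DMSO to 11.8 with ET-3 and 13.1 with NT (means of 2 libraries).

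Rbm24 and Rbm38 are paralogs, and both proteins are known to bind the mRNAs of Myog and of the cell cycle inhibitor Cdkn1a and to raise their stability. Rbm24 (ENSMUSG00000038132, chromosome 13, 46418434 to 46431095, plus strand) stood at 1283 and 1369 in the DMSO libraries, 771 and 825 after ET-3 and 794 and 748 after NT. Rbm38 (ENSMUSG00000027510, chromosome 2, 173020498 to 173034734, plus strand) stood at 362 and 353 in the DMSO libraries, 229 and 181 after ET-3 and 185 and 203 after NT. In each gene all 4 treated libraries were below both DMSO libraries, by less than 2-fold. The log2 fold changes of Rbm24 were -0.73 and -0.78 (standard error 0.05, adjusted p = 1.61e-06 and 1.10e-06, limma). For Rbm38 they were -0.81 and -0.88 (standard error 0.11, adjusted p = 8.57e-05 and 5.01e-05, limma). The ratio of the paralogs overlapped between the groups, with Rbm24 at 74.4% and 76.1% of their summed RPKM in DMSO and between 73.5% and 78.9% with either ligand.

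By level per exonic length, Rbm24 stood first of the 10 regulators in all groups, with means of 82.8 RPKM in DMSO, 53.0 with ET-3 and 52.1 with NT. With DMSO it was followed by Rbfox2 (70.5), Celf1 (45.4), Rbm20 (40.0), Mbnl2 (32.4), Rbm38 (27.2), Rbfox1 (17.1), Celf2 (15.4), Mbnl1 (11.2) and Mbnl3 (1.24). The ranges of neighbours in this order did not overlap in DMSO or ET-3, and with NT those of Mbnl1 and Rbm20 did. Under the ligands Rbm20 moved from rank 4 to rank 7 and Rbfox1 from rank 7 to rank 10, behind Mbnl3, while Celf1 moved to rank 2. Exonic length covers all annotated transcripts, which understates genes with long, seldom used exons such as Celf2 (25884 bases) and Mbnl1 (18717 bases). Exon bases shared with a gene on the opposite strand made up 13.4% in Rbm38, 7.58% in Celf2 and 0.717% in Mbnl2 and were absent from the other 7 regulators. Reads there cannot be assigned, since the sources used here disagree on whether the libraries were stranded.

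**Figure D3:**
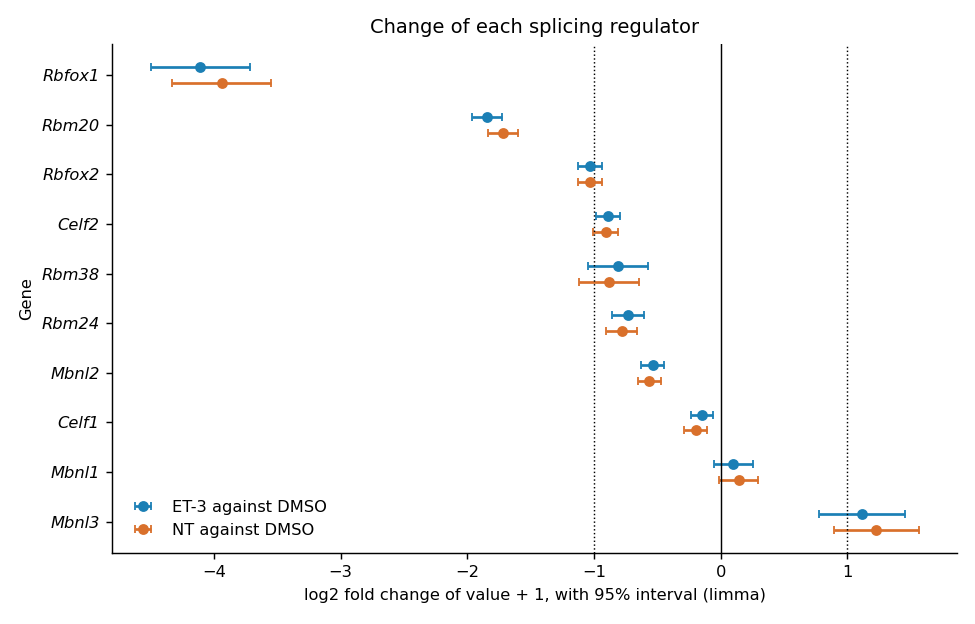
log2 fold change of value + 1 for each regulator, under ET-3 and under NT against DMSO, with limma's 95% interval as the horizontal line; dotted lines mark 2-fold. Rbfox1 lies farthest from 0 at -4.11 and -3.94, and the points of Mbnl3 are the only ones to the right of 2-fold. The intervals of Rbfox2, Mbnl3 and Rbm38 cross a 2-fold line under both ligands, and that of Celf2 does under NT.

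ET-3 and NT were compared directly in the same fit. None of the 10 regulators differed between the ligands at an adjusted p of 0.05 in limma, with adjusted p between 0.218 and 1.00, where 2.69% of all tested genes did and 0.0790% also passed 2-fold. The smallest belonged to Rbm20, at 0.13 higher on the log2 scale under NT (95% interval 0.01 to 0.25). For Rbfox2 the interval of the difference was -0.09 to 0.09. Those of Rbfox1 (-0.22 to 0.56) and Mbnl3 (-0.23 to 0.45) were wider, so differences between the ligands anywhere within these intervals remain possible.

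Genes with the most similar pattern were sought for the 4 regulators past 2-fold, by the root mean square of differences in gene-centred log2(value + 1) over the 6 libraries and among 10208 other genes. Nearest to Rbfox1 was Prph, the intermediate filament peripherin (difference 0.12), at 172 and 148 in the DMSO libraries, 10 and 10 after ET-3 and 10 and 9 after NT, followed by Dbndd1 and Ripor2. Nearest to Rbm20 were Dact3, Jph1 and Sema6a (differences 0.05 to 0.06). Jph1, which encodes the junctophilin that joins the T-tubule to the sarcoplasmic reticulum, had values of 666 and 638, 185 and 200, and 196 and 198 in the same order of groups. Rbfox2 was matched by Fech, Saraf and Akt2 (differences 0.02 to 0.03). Mbnl3 was matched by Ifit2, Arhgef39 and Ccnf (differences 0.05 to 0.07), Ccnf encoding cyclin F with values of 247 and 235 in DMSO and between 483 and 562 with either ligand. Such likeness is a description over 6 libraries in 3 groups.

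A list of 27 genes whose RNA these regulators are known to splice or stabilize was read in the same fit, and 26 were tested. The list was written with earlier results of these data known, so its counts are a description and not a test. Of these, 23 were lower and 0 higher under ET-3 by adjusted p, and 23 and 0 under NT, where 33.2% and 32.5% of all tested genes were lower. By at least 2-fold 15 fell under ET-3 and 16 under NT, beside 14.9% and 13.2% of all tested genes. The median log2 fold change over the list was -1.60 for ET-3 and -1.55 for NT, beside -0.01 and -0.01 over all tested genes. Many of its genes are muscle structural genes, and Myog and Ttn also belong to the differentiation markers whose sum fell in the same libraries, so the part of differentiation state in these values was not tested. Ldb3, the Z-disc protein cypher and a target of MBNL and RBM20, went from 1920 and 2068 in the DMSO libraries to 12 and 10 after ET-3 and 10 and 13 after NT. Mef2c, a muscle transcription factor, went from 1927 and 1930 to 8 and 10 and to 12 and 11. Nrap, which takes part in myofibril assembly, went from 1555 and 1506 to 36 and 43 and to 32 and 30. In all 3 genes the log2 fold change was between -7.60 and -5.25 under either ligand (adjusted p at most 2.14e-09, limma).

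Cacna1s, the voltage sensor of excitation-contraction coupling, had the largest fall of the list. It stood at 1774 and 1834 in the DMSO libraries, 0 and 2 after ET-3 and 0 and 1 after NT. With an estimated 2 reads left under ET-3 and 1 under NT, the ratio to DMSO was 1579 (95% counting interval 437.2 to 13041) and 4411 (791.6 to 174216). Titin (Ttn), the main known target of RBM20, went from 18751 and 20645 to 1406 and 1696 after ET-3 and 1912 and 1592 after NT, and was named here after its values were seen. Under ET-3 the 3 targets that did not pass the adjusted p were Fn1, Clcn1 and Capzb, and under NT they were Fn1, Clcn1 and Cacna1c. Because gene sums mix all splice forms, these values do not show whether any of the transcripts was spliced differently.

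**Figure D4:**
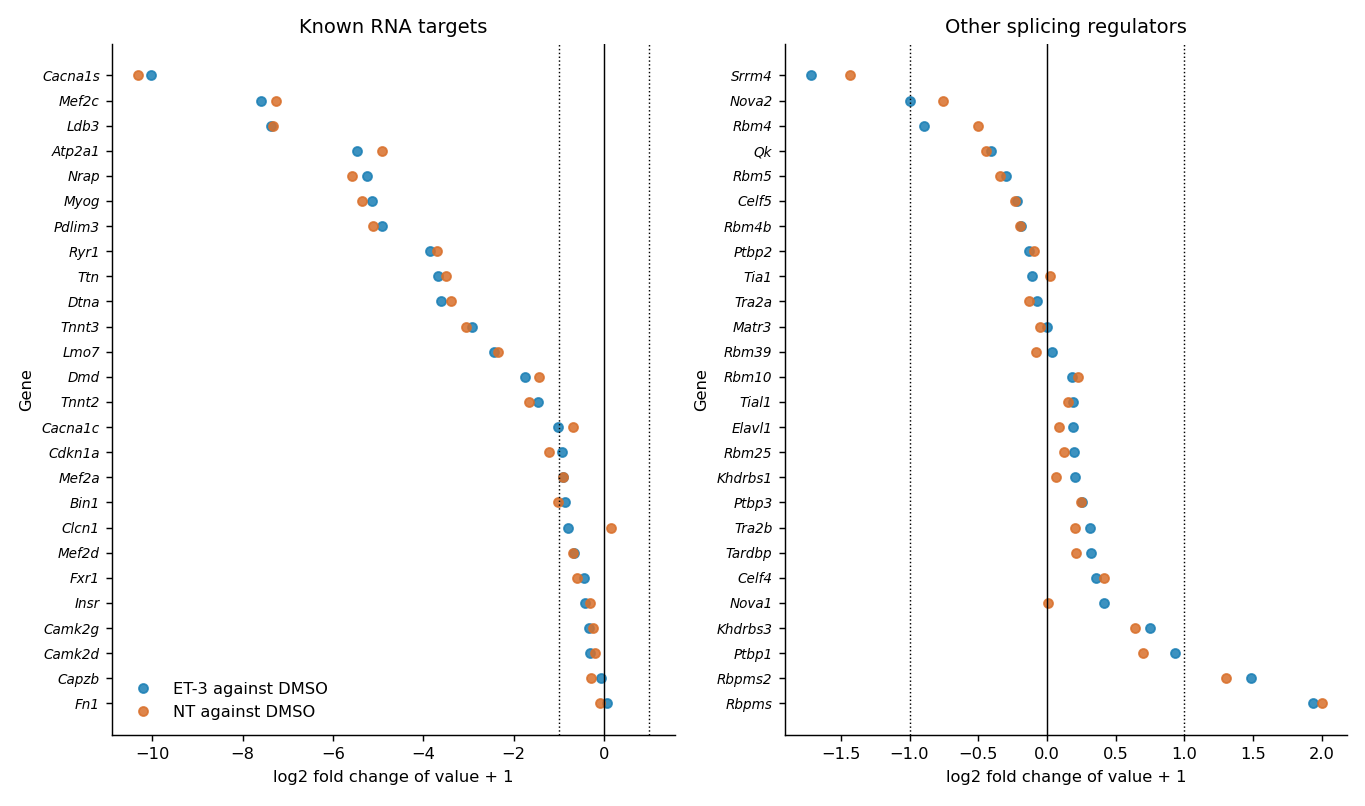
log2 fold change of value + 1 under ET-3 and NT against DMSO for the 26 tested RNA targets (left) and the 26 tested other regulators of splicing (right), with dotted lines at 2-fold and axes of different width. Targets spread from about 0 down to -10.3 for Cacna1s, whereas most other regulators lie within 2-fold of DMSO.

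The 10 regulators were set beside 32 other regulators of alternative splicing, such as PTBP, QKI, NOVA, KHDRBS and TRA2 proteins, of which 26 were tested. This list too was written with earlier results of these data known. Under ET-3, 5 of these were lower and 13 higher by adjusted p, and under NT 3 and 10, where 63.7% and 62.2% of all tested genes passed in either direction. Past 2-fold there were 2 lower and 2 higher under ET-3, and 1 and 2 under NT, beside 21.5% and 20.5% of all tested genes. The median of these 26 log2 fold changes was 0.18 for ET-3 and 0.04 for NT, against -0.77 and -0.83 for the RBFOX, MBNL, CELF and RBM genes, a difference that was not tested. Srrm4, a regulator of microexons, fell from 52 and 62 to 13 and 21 after ET-3 and 22 and 19 after NT. Its adjusted p under NT was 0.0504 with averaged treated pairs (limma), the highest of its alternatives, whose lowest was 0.000192. Rbpms2 rose from 156 and 142 to 412 and 424 after ET-3 and 360 and 378 after NT. Its relative Rbpms, which like Rbpms2 is known from smooth muscle, rose from 5 and 6 to between 21 and 27. Ptbp1, a repressor of muscle and neuronal exons that was singled out after its values were seen, rose from 851 and 831 to 1649 and 1562 after ET-3 and 1400 and 1328 after NT. Its log2 fold change was 0.93 and 0.70 (standard error 0.05, adjusted p = 1.08e-07 and 8.82e-07, limma), short of 2-fold under both ligands, although the ET-3 value was 1.02 after scaling to library totals.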

How the data were processed

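Single-end RNA-seq of cultured MuSCs was examined, with 2 libraries each of DMSO, ET-3 and NT, grouped by their labels. Per the paper's methods, the authors aligned trimmed reads to mm10 (GRCm38) using STAR, and featureCounts gave exonic counts per gene, without reads on several genes or regions. The submitters' processing notes list STAR 2.7.7a, featureCounts 1.6.5 and DESeq2 1.30.0, and the paper other versions. The labels name SMART-Seq HT and the paper a stranded kit. The deposited values are a signal per gene, rounded products of a read count and a library's factor, and how the authors set that factor is not given in the sources used here. Depth is given with the data, and 0 columns were left unmapped.

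The study's DESeq2 was replaced by limma 3.58.1 (R 4.3.3), because the values are not raw counts. It was run with a mean-variance trend on log2(value + 1) over 13921 genes with a mean of at least 5 (5022 were left out), with all 6 libraries in 1 fit. On this scale changes of low genes are understated. Calls needed a 2-fold change and a p of 0.05 or less after Benjamini-Hochberg adjustment over all tested genes, the thresholds of the study, with values of exactly 2-fold included. The fit was tested on simulated data. Exonic lengths came from GENCODE M21 (GRCm38) for 18920 genes, and promoters from RefSeq. The text names the 10 regulators, up to 4 genes per list and direction called under both ligands, and the 3 nearest patterns of each regulator called. The regulators and lists were chosen with earlier results of these data known. Python 3.11.15 made the tables and plots. Alternatives covered the low-value filter, scaling by library total or upper quartile, pseudocounts of 0.5 and 5, voom weights, a replicate block, adjusted p alone, averaged treated pairs and each library left out. Values of 1 marker gene are not reported here.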

Additional observations from a re-analysis of the deposited data

Results flagged for a closer look

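Of the 26 tested other regulators Ptbp1, and of the 26 tested RNA targets Cdkn1a, passed an adjusted p of 0.05 (limma) between the ligands. Both were chosen for mention after their values were seen. Of all tested genes 2.69% passed, with 285 lower and 90 higher under NT than under ET-3. Ptbp1 was 0.23 lower under NT than under ET-3 on the log2 scale (difference -0.23, adjusted p = 0.0420, limma), with both NT libraries (1400 and 1328) below both ET-3 libraries (1649 and 1562). Cdkn1a, whose mRNA RBM24 and RBM38 are known to stabilize, stood at 1431 and 1594 in the DMSO libraries, 783 and 791 after ET-3 and 664 and 626 after NT, a difference between the ligands of -0.29 (adjusted p = 0.0420, limma). Over the 14 alternatives the adjusted p ranged from 0.0109 to 0.712 for Ptbp1 and from 0.0168 to 0.712 for Cdkn1a (limma). Neither gene passed with any 1 library left out, with averaged treated pairs, with a replicate block or without the low-value filter. The NT libraries were the more deeply sequenced, and the part of depth in these differences was not tested. Among the markers, 2 of the 7 MuSC and myoblast genes and 2 of the 7 differentiation genes also passed between the ligands. Under NT relative to ET-3, Itga7 (-0.23, adjusted p = 0.0499, limma), Myod1 (-0.38, adjusted p = 0.0379, limma) and Acta1 (-0.67, adjusted p = 0.0379, limma) were lower on the log2 scale. Mymx was higher, with values of 0 and 0 in the ET-3 libraries and 6 and 2 in the NT libraries, and its fitted difference of 2.20 (adjusted p = 0.0379, limma) depends on the pseudocount. These 4 marker genes were not recomputed under the alternatives.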

How the results depend on the processing

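The 4 regulators called in each comparison with DMSO numbered 4 under each single library left out, and under every other alternative except library totals (3 in both comparisons, without Rbfox2), the upper quartile (3 under ET-3, without Rbfox2) and adjusted p alone (9 and 9). Library totals moved the median of all tested genes by 0.09 under ET-3 and 0.11 under NT on the log2 scale. By adjusted p alone, 8873 genes passed under ET-3, 8659 under NT and 375 between NT and ET-3. Genes past both thresholds between NT and ET-3 numbered 11, and 0 without the filter, 7 with pseudocount 5, 5 with voom weights, 0 with a replicate block, 0 with averaged treated pairs and 0 to 0 with 1 library left out. At an unadjusted p under 0.05 in limma there were 3110 genes without the filter, 2628 with the block, 662 with averaged pairs and 1455 to 2902 with 1 library left out. Leaving out 1 library gave 2723 to 2979 called genes under ET-3 and 2548 to 2902 under NT.

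Of 280 values of the regulators against DMSO under the alternatives, 269 kept their direction and their side of the adjusted p, and the other 11 belong to Mbnl1 and Celf1. With 1 library left out, Mbnl1 under ET-3 ranged from -0.0028 (without DMSO replicate 2) to 0.20. Between NT and ET-3, differences near 0 changed sign: Rbfox2 with library totals (0.024) and averaged pairs (0), Celf2 with library totals (0.0073), and with 1 library left out Rbfox2 (-0.020 to 0.020, and 0.011 without ET-3 replicate 2), Mbnl1 (-0.021 to 0.10), Mbnl3 (-0.017 to 0.24), Celf2 (-0.054 to 0.020) and Rbm38 (-0.24 to 0.098). The cause was not tested.

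Libraries with the same replicate number did not deviate together (correlation of deviations across 10209 genes -0.08 to 0.02), so the numbers were not read as pairs. The replicate block gave 4 called regulators in each comparison with DMSO, 2985 called genes under ET-3 and 2848 under NT. Where a comparison leaves 1 library in a group, that library is assumed to vary like the others.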
